A study of Arabidopsis thaliana with 6 samples.

Results

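The SAUR (small auxin up RNA) genes form a large plant family, many of whose transcripts rise within minutes of an auxin pulse, and 45 of them, out of 27655 genes in the table, are described here in Arabidopsis thaliana seedlings. These 45 were picked by locus identifier, 32 in 7 tandem arrays and 13 at single loci, and they were chosen from the family with their levels in these same 6 libraries and the difference between genotypes already known. Their differences between genotypes are therefore given as a description, and nothing is supported with them. The reference annotation (TAIR10.1) names 79 SAUR genes in all, and the other 34 are given further on.

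RNA was sequenced from whole seedlings 10 days old, grown in days of 16 h light and 8 h dark at 22 °C. The 6 libraries are 3 of wild type plants (Col) and 3 of the line h3.3ko;HTR5. In Arabidopsis HTR4, HTR5 and HTR8 encode H3.3, a variant of histone H3 that can be built into chromatin at any stage of the cell cycle. By its name the line lacks H3.3 genes and carries HTR5. Its construction, and the promoter behind HTR5, were not given in these sources. The labels give no auxin treatment, so whether a gene responds to auxin is background and was not measured. Nothing in the labels says whether replicates are separate cultures, so every p-value rests on the spread between libraries alone, and that spread may be technical.

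SAUR proteins are small and short-lived. Those of the SAUR19 and SAUR63 groups hold back PP2C-D phosphatases, which otherwise remove an activating phosphate from the proton pumps of the plasma membrane, so that more of the protein means a more acid cell wall and faster cell expansion. Transcription of many family members is driven by auxin response factors, by PIF factors and by the brassinosteroid factors BZR1 and BES1, and is repressed or induced by light in different organs.

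Values are TPM, that is reads per gene length scaled to the same total in every library. They are listed in the order of replicates 1 to 3, wild type first and h3.3ko;HTR5 after "against" or "to". Reads in annotated nuclear genes, worked out from the TPM, came to 13768564 to 14472358 per library, with organelle genes left out. HTR8 was at 315, 324 and 289 TPM in the wild type libraries against 3.19, 5.2 and 5.03 TPM, HTR4 at 309 to 331 against 148 to 154.5 TPM, and HTR5 at 403 to 423 against 290 to 298 TPM. All 3 genes were lower in every h3.3ko;HTR5 library than in any wild type library, and RNA of the resident HTR5 cannot be separated from that of an added copy. A fold change was tested across 19013 genes with limma on log2(TPM + 1), and "rose", "fell" and "past the threshold" mean a Benjamini-Hochberg adjusted p under 0.05 over all of these. Log2 fold changes are h3.3ko;HTR5 minus wild type with their standard error (SE), and the median over all tested genes was -0.03.

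Of the 45 genes 40 were expressed highly enough to be tested (a mean of at least 1 TPM), 10 rose, 4 fell and 26 did not pass. At an unadjusted p under 0.05 there were 26. The share of all genes at that level is not given, here or further on, so nothing is read from such counts. A test on the recovered reads, voom, called 15 of the 40, and 2920 genes in all. Among all tested genes limma called 12.0%, 3.7% being higher and 8.32% lower in h3.3ko;HTR5. Since the genes were selected on this contrast, nothing is read from the difference between these shares. All 3 h3.3ko;HTR5 libraries lay above all 3 wild type libraries in 12 of the 40, a pattern that 10.8% of tested genes showed, and below them in 5, which 20.4% showed. The groups overlapped in the other 23. The median log2 fold change of the 40 was 0.29, and 26 were positive, as were 42.1% of all tested genes. In whole seedlings, fewer cells that express a gene and less RNA of it per cell cannot be told apart.

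Levels spread over a wide range. In wild type 29 of the 45 had a mean under 10 TPM, 14 lay between 10 and 100 TPM, and only AT1G72430 (SAUR78) and AT4G38840 (SAUR14) were above 100 TPM. Together the 45 summed to 715, 796 and 799 TPM in wild type and to 948, 921 and 947 TPM in h3.3ko;HTR5, a ratio of 1.22. No h3.3ko;HTR5 sum reached down to a wild type one. AT1G29440 (SAUR63), AT4G34780 (SAUR2) and AT4G13790 (SAUR25) were listed at 0 in all 6 libraries, where 3 reads would have been 0.796, 1.12 and 0.559 TPM at most. For AT1G29440 a gene on the other strand leaves the 0 uncertain, as described further on. AT1G29490 and AT4G34790 (SAUR3) were too low to be tested, at 0.55 ± 0.36 against 1.39 ± 0.25 TPM and 0.60 ± 0.40 against 1.31 ± 0.52 TPM (mean ± SD, n = 3).

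Genes in arrays and genes at single loci lay on different sides of 0, a single locus being one with no other of the 45 beside it. Of the 28 tested array genes 25 had a positive log2 fold change, 9 rose and 0 fell, with a median of 0.44. Of the 12 tested genes at single loci 1 was positive and rose, 11 were negative and 4 of these fell, with a median of -0.31. Over all tested genes 42.1% were positive, 3.7% rose and 8.32% fell. As the 45 were selected on this contrast, nothing is read from the distance to these shares. The array genes stayed at 25 positive with a median of 0.48 after quantile normalization and after median-of-ratios scaling, and the single loci stayed at 1 positive with medians of -0.23 and -0.28. Wild type replicate 1 moves with this split. It was the lowest wild type library in 23 of the 28 array genes (82.1%), against 27.3% of all tested genes. Without it 22 of the 28 were positive, with a median of 0.28, and the median of the single loci was -0.33. Its part in the result beyond these values was not tested.

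**Figure D1:**
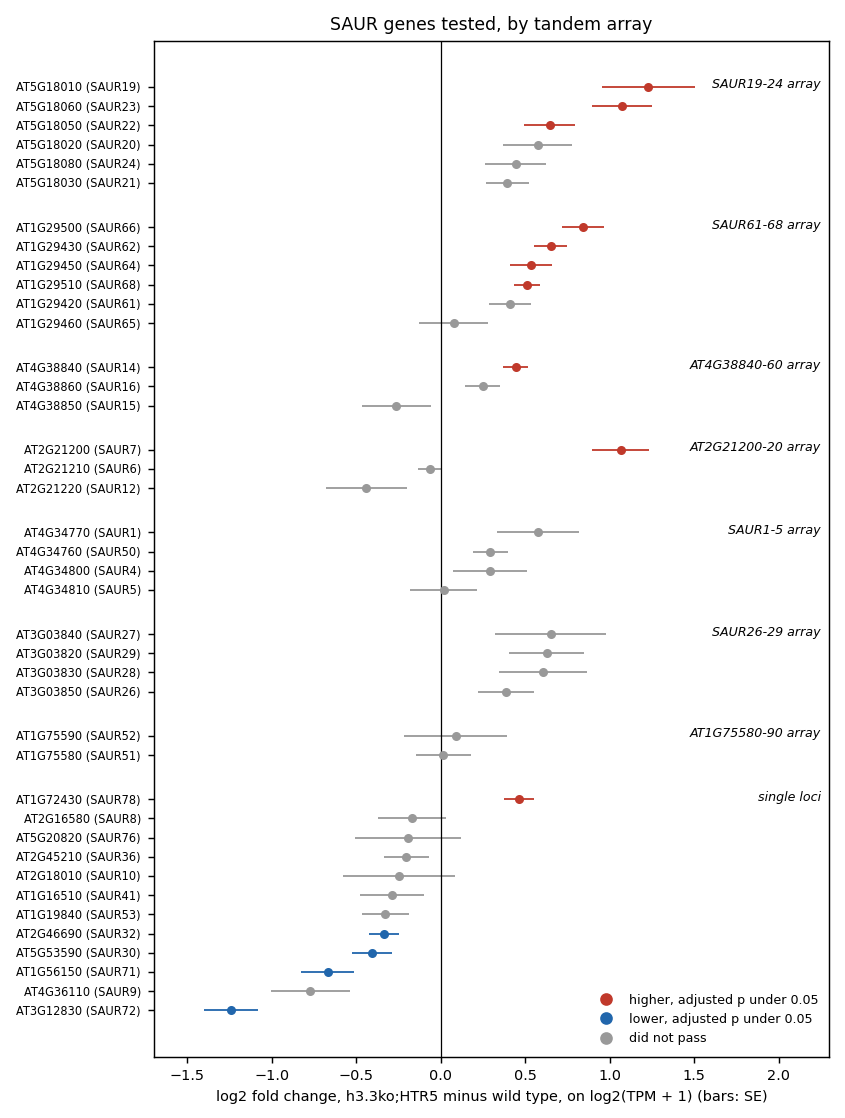
Log2 fold change of the 40 tested SAUR genes (h3.3ko;HTR5 minus wild type on log2(TPM + 1)), grouped by tandem array, with bars of 1 SE, and coloured by whether the gene passed an adjusted p of 0.05 in limma over all 19013 tested genes. Points of the SAUR19-24, SAUR61-68, SAUR1-5 and SAUR26-29 arrays all lie right of 0, while 11 of the 12 single loci lie left of it.

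The SAUR19-24 array on chromosome 5 (5962773 to 5984308, TAIR10.1) holds 6 genes that are nearly the same sequence, and all 6 had positive fold changes. Their coding sequences share 87.7% to 95.2% of bases between pairs, with a median of 91.2%, so the first 60 bases from the start codon are shown, in lower case where the 6 are alike and in capitals at the 12 positions where they differ.
AT5G18010 (SAUR19): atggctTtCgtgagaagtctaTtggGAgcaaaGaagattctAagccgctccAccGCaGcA
AT5G18020 (SAUR20): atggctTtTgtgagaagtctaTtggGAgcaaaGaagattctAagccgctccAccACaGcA
AT5G18030 (SAUR21): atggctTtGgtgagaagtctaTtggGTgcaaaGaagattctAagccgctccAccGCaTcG
AT5G18050 (SAUR22): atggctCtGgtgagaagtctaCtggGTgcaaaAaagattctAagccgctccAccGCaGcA
AT5G18060 (SAUR23): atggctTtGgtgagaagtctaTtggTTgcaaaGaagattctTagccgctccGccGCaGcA
AT5G18080 (SAUR24): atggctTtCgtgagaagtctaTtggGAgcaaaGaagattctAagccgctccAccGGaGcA
A read without a capital fits more than 1 of these genes. Of 50-base windows, AT5G18010 shares 18.5% with another place in the genome and the other 5 share 0.573% to 7.11%, so how reads were split among them is uncertain for AT5G18010 in particular. Overexpression of SAUR19-24 proteins is known to enlarge hypocotyl cells.

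AT5G18060 (SAUR23) was at 2.29, 4.11 and 4.54 TPM against 8.235, 8.98 and 8.41 TPM. The groups did not overlap, and the gene rose with a log2 fold change of 1.07 ± 0.18. AT5G18010 (SAUR19) was at 0.977, 3.25 and 3.53 TPM against 6.37, 8.14 and 6.26 TPM. The first wild type library was the low one, the groups were apart, and the gene rose by 1.23 ± 0.28, a call lost without h3.3ko;HTR5 replicate 2 (limma adjusted p = 0.0625). AT5G18050 (SAUR22) was at 2.28, 3.6 and 3.21 TPM against 4.98, 5.88 and 4.88 TPM. It rose by 0.64 ± 0.15, but not when any 1 h3.3ko;HTR5 library was left out (limma adjusted p = 0.0516 to 0.0765).

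The 3 more abundant genes of the array did not pass. AT5G18020 (SAUR20), the highest in wild type, was at 12.05, 21.0 and 23.9 TPM against 29.6, 23.6 and 30.2 TPM, and a wild type library overlapped the h3.3ko;HTR5 range (log2 fold change 0.57 ± 0.20). Without wild type replicate 3 it passed (limma adjusted p = 0.0462). AT5G18030 (SAUR21) averaged 18.4 ± 3.89 against 24.3 ± 2.12 TPM and AT5G18080 (SAUR24) 17.0 ± 5.6 against 22.7 ± 0.81 TPM (SD, n = 3). SAUR21 passed without wild type replicate 3 (limma adjusted p = 0.00889) and SAUR24 without wild type replicate 2 (limma adjusted p = 0.0195). Over the 17 alternatives to the main fit SAUR20 passed in 2, SAUR21 in 3 and SAUR24 in 1. As a sum the array went from 44.7, 71.8 and 74.6 TPM to 97.1, 91.7 and 97.8 TPM, a ratio of 1.5, and of 1.305 without wild type replicate 1.

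The SAUR61-68 array on chromosome 1 (10301377 to 10323239) holds 8 genes of the SAUR63 group, which is known for promoting elongation of hypocotyls and stamen filaments. Its 6 tested genes were all positive and 4 of them rose. AT1G29500 (SAUR66) was at 14.1, 16.9 and 18.8 TPM against 25.5, 31.9 and 34.0 TPM. Its groups were well apart, and the log2 fold change of 0.84 ± 0.12 was the largest of the array. AT1G29430 (SAUR62), the most abundant, was at 29.1, 38.4 and 38.3 TPM against 52.8, 56.5 and 57.2 TPM (0.65 ± 0.10). Wild type replicate 1 was again the lowest library, and no libraries of the groups overlapped.

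AT1G29510, which the annotation calls SAUR68 and which is also known as SAUR67, was at 18.0, 20.55 and 20.9 TPM against 30.0, 29.1 and 26.8 TPM (log2 fold change 0.51 ± 0.08). AT1G29450 (SAUR64) was at 10.7, 16.1 and 14.55 TPM against 20.2, 20.6 and 19.6 TPM and rose by 0.54 ± 0.13. Its call was lost without any 1 of the h3.3ko;HTR5 libraries (limma adjusted p = 0.059 to 0.0635). AT1G29420 (SAUR61) averaged 4.29 ± 0.13 against 6.06 ± 0.94 TPM with no overlap and did not pass, and AT1G29460 (SAUR65) averaged 11.6 ± 2.12 against 12.55 ± 3.94 TPM (SD, n = 3). The array summed to 85.8, 108.5 and 111 TPM against 144, 159.7 and 161 TPM, a ratio of 1.52, and 1.41 without wild type replicate 1.

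Sharing of reads touches this array too. AT1G29430, AT1G29440 and AT1G29510 have 23.2%, 27.1% and 33.9% of their 50-base windows in common with one another or with AT5G27780 (SAUR75) on chromosome 5. AT1G29440 and AT5G27780 were listed at 0 in all libraries. AT1G29440 (10304507 to 10305108) also lies wholly within AT1G29435 (10303890 to 10305584) on the other strand, and AT1G29450 overlaps only an end of it. With no strand setting known a read there could belong to either strand. AT1G29435 itself held 2 reads in all libraries together. How reads that fit overlapping genes were counted is not known, so the 0 of AT1G29440 may not mean absence. AT1G29500, the gene with the largest fold change, shares 0.435% of its windows.

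**Figure D2:**
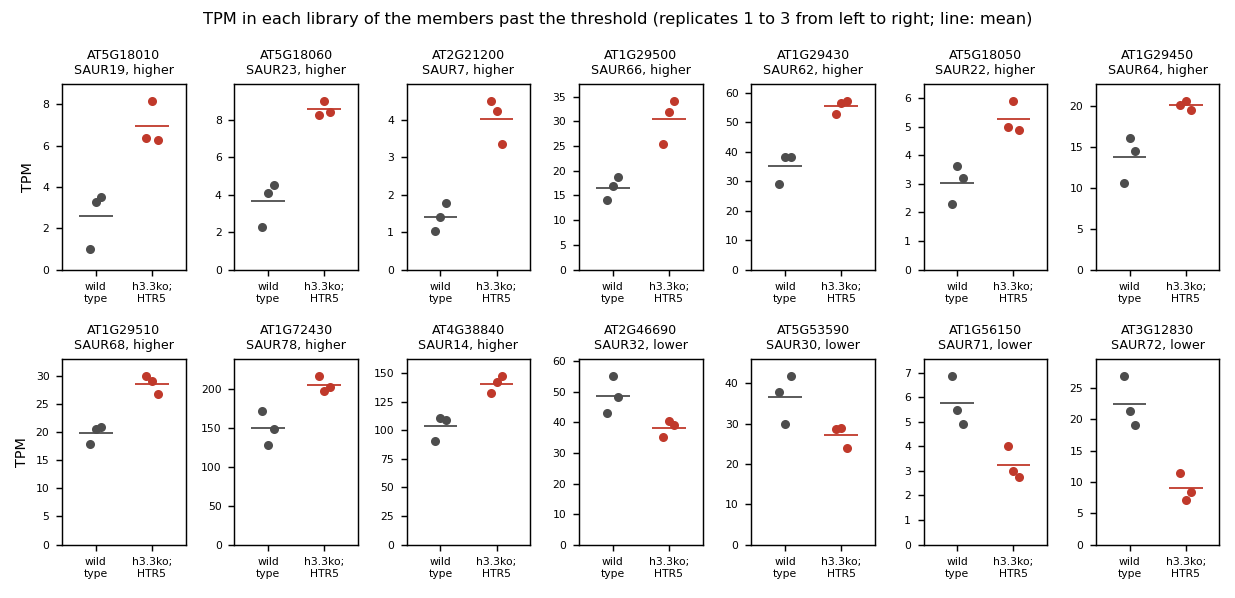
TPM in each library of the 14 SAUR genes past the threshold, replicates 1 to 3 from left to right, with a line at the group mean (10 higher, then 4 lower, each panel with its own axis from 0). In every panel the 3 h3.3ko;HTR5 points lie wholly above or wholly below the 3 wild type points, and in all 9 array genes that rose the left wild type point is the lowest of its group.

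Each of the other arrays had 1 gene or none past the threshold. The SAUR26-29 array had none, though its median log2 fold change of 0.62 was close to the 0.61 of SAUR19-24. On chromosome 4 (18124978 to 18131284), AT4G38840 (SAUR14), induced by light in cotyledons, was at 90.85, 110.8 and 108.7 TPM against 132.5, 142 and 147 TPM. No libraries overlapped and it rose by 0.44 ± 0.08. Its neighbour AT4G38850 (SAUR15), the early auxin gene also called SAUR-AC1, was at 4.63 ± 1.58 against 3.6 ± 0.65 TPM, and AT4G38860 (SAUR16), also light-induced, at 55.85 ± 7.57 against 66.35 ± 7.34 TPM (SD, n = 3). Neither passed.

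On chromosome 2 (9083906 to 9090052) AT2G21200 (SAUR7) was at 1.03, 1.41 and 1.78 TPM against 4.49, 4.22 and 3.35 TPM. It rose by 1.06 ± 0.17 with no overlap, from 94 reads in all 6 libraries together, and it overlaps an end of AT2G21210 on the same strand and of AT2G21195 on the other. AT2G21210 (SAUR6) was at 69.9, 69.5 and 69.75 TPM against 70.3, 59.7 and 70.4 TPM (-0.07 ± 0.07). AT2G21220 (SAUR12) averaged 1.4 ± 0.63 against 0.754 ± 0.34 TPM and did not pass. The array's sum had a ratio of 0.987, and of 1.015 after median-of-ratios scaling.

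On chromosome 4 (16582183 to 16599568), the SAUR1-5 genes and AT4G34760 (SAUR50) next to them had 4 tested members, all positive and none past the threshold. AT4G34760, another gene induced by light in cotyledons, was at 34.8, 47.7 and 44.2 TPM against 55.1, 51.9 and 47.9 TPM. The h3.3ko;HTR5 libraries were all higher, by a narrow margin (0.29 ± 0.10). AT4G34770 (SAUR1) was at 2.11, 0.649 and 0.873 TPM against 2.54, 1.66 and 2.38 TPM (0.58 ± 0.25), with wild type replicate 1 inside the other range. It passed without that library (limma adjusted p = 0.0296). AT4G34800 (SAUR4) and AT4G34810 (SAUR5) averaged 2.53 ± 1.04 against 3.25 ± 0.81 TPM and 2.155 ± 0.56 against 2.2 ± 0.59 TPM (SD, n = 3).

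The SAUR26-29 array on chromosome 3 (976715 to 983768), whose natural variation is linked to the growth response to warmth, had the widest spread among wild type libraries relative to its mean. AT3G03820 (SAUR29) was at 5.49, 13.3 and 8.2 TPM against 14.1, 13.2 and 13.8 TPM (0.63 ± 0.22), and AT3G03840 (SAUR27) at 2.12, 8.9 and 5.47 TPM against 7.01, 8.72 and 8.9 TPM (0.65 ± 0.33). In both the h3.3ko;HTR5 values lie close together and the wild type values are spread out, with replicate 1 lowest and replicate 2 inside the h3.3ko;HTR5 range. AT3G03850 (SAUR26) averaged 8.13 ± 2.19 against 10.8 ± 1.3 TPM and AT3G03830 (SAUR28) 3.24 ± 1.53 against 5.2 ± 1.14 TPM (SD, n = 3). None passed, but AT3G03820 did so without wild type replicate 2 (limma adjusted p = 0.00812). The array sum ran 15.05, 37.1 and 25.5 TPM against 35.3, 37.1 and 41.1 TPM. Its ratio of 1.46 was 1.21 without wild type replicate 1 and 1.865 without replicate 2.

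AT1G75580 (SAUR51) and AT1G75590 (SAUR52) lie side by side on chromosome 1 (28377377 to 28383769). The first was at 4.3, 2.88 and 4.96 TPM against 3.99, 4.38 and 3.73 TPM, and the second at 0.969, 3.48 and 4.17 TPM against 3.08, 2.85 and 2.48 TPM. Their groups overlapped fully, with log2 fold changes of 0.02 ± 0.165 and 0.09 ± 0.31. The pair summed to a ratio of 0.988, and of 1.014 after median-of-ratios scaling.

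**Figure D3:**
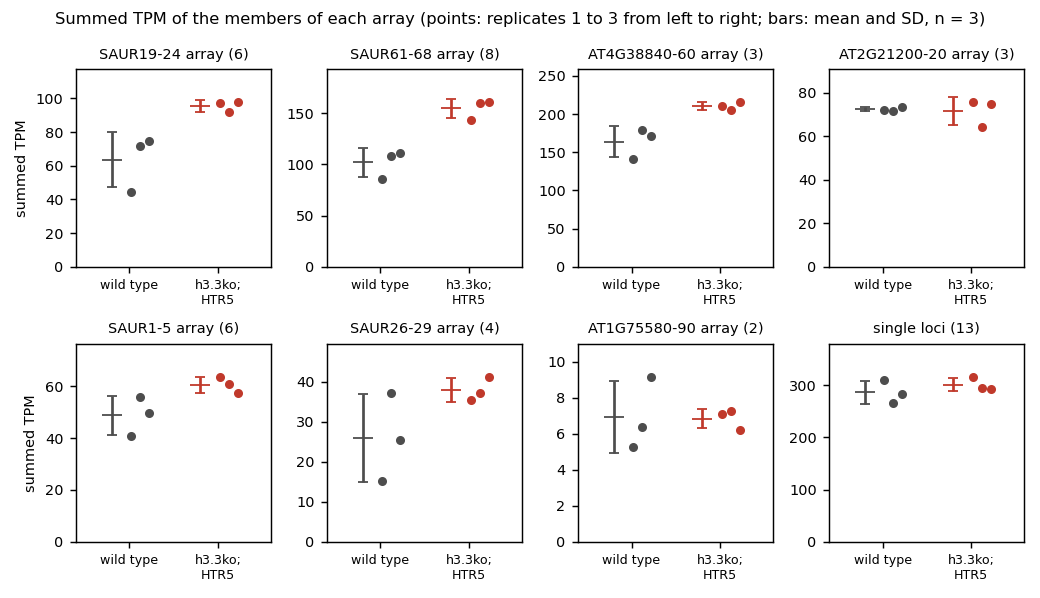
Summed TPM of the SAUR genes of each of the 7 arrays and of the 13 single loci, by library, with the mean and SD of each group (n = 3, every axis from 0). In the SAUR19-24, SAUR61-68, AT4G38840-60 and SAUR1-5 panels all 3 h3.3ko;HTR5 points lie above all 3 wild type points, and in these and the SAUR26-29 panel the left wild type point is the lowest.

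Single loci went mostly the other way. AT3G12830 (SAUR72) had the largest decrease, from 26.9, 21.4 and 19.1 TPM to 11.4, 7.14 and 8.43 TPM. The groups were far apart and it fell by 1.24 ± 0.16 on the log2 scale. It belongs with SAUR40, SAUR41 and SAUR71 to the SAUR41 group, of which several members are known for expression in the stele and the stomatal lineage. AT1G56150 (SAUR71) was at 6.85, 5.46 and 4.92 TPM against 4.01, 2.99 and 2.73 TPM. It fell by 0.67 ± 0.16, with no overlap, but not when wild type replicate 1 or 2, or replicate 2 or 3 of h3.3ko;HTR5, was left out (limma adjusted p = 0.0566 to 0.0812). AT1G16510 (SAUR41) averaged 3.18 ± 1.03 against 2.365 ± 0.32 TPM (SD, n = 3) and did not pass, and SAUR40 was listed at 0.

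AT2G46690 (SAUR32), linked to the apical hook, was at 42.96, 55.2 and 48.3 TPM against 35.3, 40.4 and 39.3 TPM, and fell by 0.34 ± 0.09. AT5G53590 (SAUR30) was at 37.9, 29.95 and 41.7 TPM against 28.7, 28.8 and 23.8 TPM, and fell by 0.41 ± 0.12. In both the highest h3.3ko;HTR5 library lies just under the lowest wild type one. Both are among the least steady calls: without 1 library the first lost its call in every case but that of wild type replicate 1 (limma adjusted p = 0.0546 to 0.117), and the second in every case but that of wild type replicate 2 (limma adjusted p = 0.0713 to 0.171). Both calls were also lost with no filter on low genes, with quantile normalization, with median-of-ratios scaling and with no variance trend (limma adjusted p = 0.062 to 0.107 for SAUR32 and 0.0618 to 0.124 for SAUR30). SAUR32 lost its call with voom too (limma adjusted p = 0.0608), and SAUR30 with a pseudocount of 0.1, the robust option and a replicate block (limma adjusted p = 0.0502, 0.054 and 0.0621). Over the 17 alternatives SAUR32 was called in 7 and SAUR30 in 5, and both stayed lower in h3.3ko;HTR5 under each of them. Of the other genes past the threshold, SAUR19, SAUR64 and SAUR78 lost their calls with no variance trend, and SAUR22 and SAUR71 with voom.

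AT1G72430 (SAUR78), known to bind ethylene receptors, was the only single locus that rose and the most abundant of the 45. It stood at 171, 128 and 149 TPM against 216, 197 and 202.5 TPM, and rose by 0.47 ± 0.09 with no overlap. Here wild type replicate 1 was the highest wild type library. AT5G20820 (SAUR76), of the same group and next to SAUR70, averaged 1.94 ± 0.76 against 1.69 ± 1.259 TPM (SD, n = 3). Because of AT1G72430 the 13 single loci as a sum had a ratio of 1.05, although 11 of the 12 tested had negative fold changes.

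The remaining single loci did not pass. AT4G36110 (SAUR9) was the only one of them without overlap, at 2.74 ± 1.09 against 1.15 ± 0.41 TPM (-0.77 ± 0.23). AT2G45210 (SAUR36), linked to leaf senescence, averaged 6.83 ± 1.32 against 5.75 ± 0.46 TPM, AT1G19840 (SAUR53) 5.63 ± 1.11 against 4.24 ± 0.32 TPM and AT2G18010 (SAUR10) 1.32 ± 0.55 against 1.08 ± 1.02 TPM. AT2G16580 (SAUR8) averaged 1.885 ± 0.34 against 1.6 ± 0.64 TPM (SD, n = 3 throughout). The TPM of SAUR8 was divided by a span of 2588 bases, of which 893 are exonic, so its level is understated beside those of genes with a single exon block.

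Gene structure sets few of these genes apart. Of the 45, 43 are a single exon block, so span and exon length are nearly the same for them. The arrays differ in how alike their genes are. Median coding identity between pairs was 91.2% in SAUR19-24, 82.0% in SAUR26-29, 63.15% in SAUR61-68, 58.7% in AT4G38840-60, 56.1% in SAUR1-5, 43.1% in AT2G21200-20 and 40.4% in the AT1G75580-90 pair. The 3 arrays with the highest identity are also those with the highest ratios of sums, which is an order over 7 arrays and no test.

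Promoters of the 45 were searched, in the 250 bases before the annotated start and on both strands, for TGTCTC (the auxin response element), TGTCGG (its high-affinity form), CACGTG (the G-box), CACATG (an E-box variant that PIF proteins are known to bind) and TATAAA. The E-box variant was in 26 of the 45 (57.8%), in 17.6% of the 34 other SAUR genes and in 11.1% of 27432 protein-coding genes. TGTCTC was in 15.6% of the 45 against 10.9% of all, TGTCGG in 4.44% against 4.16%, CACGTG in none against 6.49% and TATAAA in 46.7% against 47.3%. No motif is contained in another, and a promoter counts once however many matches it holds. Genes of an array are related copies, so their promoters are not independent. Some windows lie in other genes: that of AT5G18010 overlaps AT5G02835 and that of AT1G29440 overlaps AT1G29435. The window of AT2G21200 (SAUR7) lies wholly inside AT2G21210 on the same strand, and so do its TGTCTC matches.

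Among the 10 genes that rose 7 held CACATG and 5 held TGTCTC, and among the 4 that fell none held either. The rising genes without CACATG were SAUR23, SAUR7 and SAUR78. By sign alone, CACATG was in 18 of the 26 tested genes with a positive log2 fold change and in 4 of the 14 negative ones. Of the 26 tested genes that did not pass, 15 held CACATG and 2 held TGTCTC. Both motifs follow the arrays: CACATG was in 23 of 32 array genes and 3 of 13 single loci, and TGTCTC in 7 of 32 and none of 13. CACATG was in all 8 genes of SAUR61-68 and all 4 of SAUR26-29. Within the arrays the 20 tested genes with CACATG had a median log2 fold change of 0.48 and the 8 without it 0.37. For TGTCTC the medians there were 0.64 over 7 genes with it and 0.39 over 21 without it. These are descriptions of genes chosen on this contrast. A match describes letters in a window and is not a bound site. Shown are the promoters of the rising genes AT1G29500, AT1G29430, AT4G38840 and AT5G18050, which hold CACATG, and of AT3G12830, the gene with the largest decrease, which does not. They are from the RefSeq TAIR10.1 genome, read 5′ to 3′ on the gene's strand, ending at the base before the annotated start. Capitals mark the motifs above, also where the letters are the reverse complement (CATGTG for the E-box variant, GAGACA for the auxin response element, TTTATA for the TATA box).
AT1G29500 (SAUR66), chr1:10320761-10321010, plus strand: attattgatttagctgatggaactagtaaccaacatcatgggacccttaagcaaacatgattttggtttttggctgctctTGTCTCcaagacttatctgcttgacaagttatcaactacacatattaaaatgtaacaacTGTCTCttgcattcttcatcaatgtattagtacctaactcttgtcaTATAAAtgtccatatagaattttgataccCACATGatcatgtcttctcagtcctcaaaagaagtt
AT1G29430 (SAUR62), chr1:10303419-10303668, minus strand: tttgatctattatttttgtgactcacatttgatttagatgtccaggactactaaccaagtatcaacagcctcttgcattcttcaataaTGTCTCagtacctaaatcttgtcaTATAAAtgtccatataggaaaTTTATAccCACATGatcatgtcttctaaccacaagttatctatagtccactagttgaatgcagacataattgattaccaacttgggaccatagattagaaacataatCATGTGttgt
AT4G38840 (SAUR14), chr4:18125560-18125809, minus strand: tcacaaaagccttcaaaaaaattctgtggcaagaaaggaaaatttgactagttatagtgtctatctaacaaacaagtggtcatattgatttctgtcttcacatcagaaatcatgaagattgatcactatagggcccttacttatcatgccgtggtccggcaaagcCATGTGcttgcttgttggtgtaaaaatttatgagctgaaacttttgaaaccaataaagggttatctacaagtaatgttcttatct
AT5G18050 (SAUR22), chr5:5975088-5975337, minus strand: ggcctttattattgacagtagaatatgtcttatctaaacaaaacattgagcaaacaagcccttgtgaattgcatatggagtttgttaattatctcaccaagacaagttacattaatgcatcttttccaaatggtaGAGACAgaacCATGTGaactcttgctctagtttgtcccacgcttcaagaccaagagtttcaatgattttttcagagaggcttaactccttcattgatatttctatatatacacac
AT3G12830 (SAUR72), chr3:4079628-4079877, minus strand: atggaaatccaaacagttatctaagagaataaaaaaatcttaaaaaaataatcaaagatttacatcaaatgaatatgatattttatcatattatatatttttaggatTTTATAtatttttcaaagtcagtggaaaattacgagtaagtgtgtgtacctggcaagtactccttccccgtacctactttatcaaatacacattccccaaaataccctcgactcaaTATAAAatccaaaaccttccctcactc
AT1G29430 and AT1G29500, in the same array, both carry the auxin response element, then TATAAA, then the E-box variant on the way to the start. AT4G38840 holds the E-box variant alone, AT5G18050 holds it beside the auxin response element, and AT3G12830 holds TATAAA alone.

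**Figure D4:**
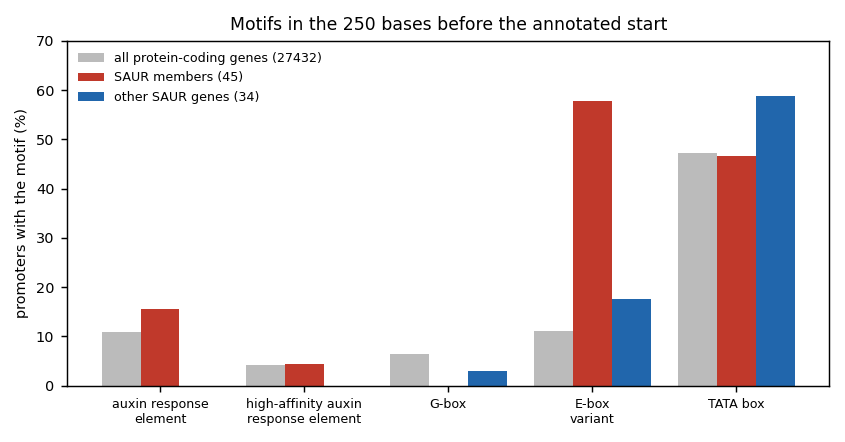
Share of promoters (250 bases before the annotated start, both strands, in %) with each of the 5 motifs, for 27432 protein-coding genes, the 45 SAUR genes and the 34 other SAUR genes. The E-box variant CACATG is in 57.8% of the 45 and in 11.1% of all, while the other 4 motifs differ less.

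The 34 SAUR genes outside the 45 are what that choice left of the family, so the difference between both sets is partly made by it. Of these 8 were listed at 0 in all libraries and 13 were tested, of which 0 rose and 3 fell, with a median log2 fold change of -0.42. Over all tested genes 3.7% rose and 8.32% fell. In either direction 7 of the 13 had an unadjusted p under 0.05, and voom called 3. AT2G35290 (SAUR79) was at 4.89, 3.56 and 3.75 TPM against 2.06, 1.24 and 1.94 TPM (log2 fold change -0.89 ± 0.17, limma adjusted p = 0.00878). AT3G60690 (SAUR59) was at 31.3, 30.2 and 28.5 TPM against 23.99, 20.0 and 14.9 TPM (-0.61 ± 0.14, limma adjusted p = 0.0173, and 0.0602 without wild type replicate 2). AT4G31320 (SAUR37) was at 9.37, 8.11 and 8.85 TPM against 5.67, 6.65 and 5.96 TPM (-0.46 ± 0.10, limma adjusted p = 0.0174). The last of these did not pass without replicate 1 or 3 of either group (limma adjusted p = 0.0508 to 0.0628). All 3 of these genes are separate loci, and their groups did not overlap. In 20.4% of all tested genes every h3.3ko;HTR5 library likewise lay below every wild type library.

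Genes on either side of the SAUR proteins in auxin-driven growth were taken as lists of named genes and not as whole families. The GH3 and AHA lists leave members out, and all lists were chosen with earlier results of these data known. Of all tested genes 12.0% changed, 3.7% higher and 8.32% lower, and each count below stands beside these shares. Of 24 tested Aux/IAA genes, repressors that auxin degrades and whose transcripts it raises, 3 rose, 1 fell and 20 did not pass. IAA18 was at 35.45, 29.4 and 32.9 TPM against 39.8, 40.4 and 43.15 TPM and rose (log2 fold change 0.33 ± 0.07, limma adjusted p = 0.0187). IAA8 (137 ± 5.56 to 163 ± 7.52 TPM, limma adjusted p = 0.00997) and IAA16 (197 ± 12.4 to 225 ± 4.63 TPM, limma adjusted p = 0.0334) rose too, and IAA17 fell from 83.5 ± 1.415 to 67.3 ± 3.13 TPM (limma adjusted p = 0.00426; SD, n = 3). All 4 changes were smaller in log2 size than any of the 14 SAUR changes past the threshold. IAA18 lost its call without replicate 2 of wild type and without replicate 3 of h3.3ko;HTR5 (limma adjusted p = 0.0586 and 0.0807), and IAA16 without any 1 library but wild type replicate 1 (0.0647 to 0.109). Without h3.3ko;HTR5 replicate 3 or wild type replicate 2 the count of changed genes was 2, and with voom it was 8.

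Of 5 tested GH3 genes, which encode enzymes that conjugate auxin to amino acids and are early auxin genes as well, 2 rose and none fell. GH3.5 was at 47.5, 41.7 and 45.7 TPM against 60.5, 61.65 and 65.0 TPM (log2 fold change 0.46 ± 0.06, limma adjusted p = 0.00141). GH3.6 was at 63.2, 58.95 and 63.0 TPM against 78.7, 74.8 and 79.2 TPM (0.32 ± 0.05, limma adjusted p = 0.00358). In both every h3.3ko;HTR5 library lay above every wild type library, as in 10.8% of all tested genes.

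None of the 9 PP2C-D phosphatase genes and none of the 7 tested AHA proton pump genes passed with limma. At an unadjusted p under 0.05 there were 3 and 1, and voom called 1 in each. The pump genes AHA1 and AHA2, the most abundant, stood at 235 ± 12.2 against 220.4 ± 9.33 TPM and 172 ± 9.99 against 175 ± 8.56 TPM (SD, n = 3). The phosphatase gene AT5G02760 (PP2C-D1) stood at 23.0 ± 3.405 against 28.6 ± 3.57 TPM.

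Of 12 transcription factor genes that act on SAUR promoters 1 rose and 2 fell, beside 3.7% and 8.32% of all tested genes. PIF4, which drives elongation in warmth and shade, was at 64.3, 68.5 and 68.0 TPM against 73.95, 76.9 and 81.6 TPM (log2 fold change 0.21 ± 0.05, limma adjusted p = 0.0357). BES1, of brassinosteroid signalling, fell from 151 ± 5.855 to 131 ± 0.22 TPM (limma adjusted p = 0.0157) and HY5, the light-signalling factor that restrains elongation, from 27.98 ± 2.2 to 22.2 ± 0.30 TPM (limma adjusted p = 0.0185; SD, n = 3). PIF4 passed without h3.3ko;HTR5 replicate 1 but not without any 1 of the other libraries (limma adjusted p = 0.0679 to 0.145). Without h3.3ko;HTR5 replicate 3 none of the 3 passed (0.0575 to 0.145). BES1 also failed without h3.3ko;HTR5 replicate 1 (0.051) and HY5 without h3.3ko;HTR5 replicate 2 (0.0554).

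Organ make-up of the seedlings was looked at through marker genes. Of 9 tested root markers none passed with limma (1 at an unadjusted p under 0.05, 0 by voom), none of the 10 was at 0, and they summed to 194 to 208 TPM in wild type and 193 to 202 TPM in h3.3ko;HTR5. Of 7 leaf markers 1 changed, GLK1, which fell from 166 ± 8.98 to 130 ± 4.36 TPM (SD, n = 3, limma adjusted p = 0.00229). Over all tested genes 12.0% changed. The leaf markers summed to 27240 to 28920 TPM against 29190 to 30710 TPM, most of it RBCS1A and LHCB2.1. The part of organ make-up in the SAUR values was not tested.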

How the data were processed

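Whole-seedling RNA was sequenced from 3 wild type and 3 h3.3ko;HTR5 libraries. Per the submitters' processing notes, fastp 0.20.1, HISAT2 2.1.10 and DESeq2 1.26.0 were used, with TAIR10 as build. The sources used here do not give which tool counted reads, on which strand and with which annotation. What the authors deposited are TPM values for 27655 genes, each library summing to 1000000. With gene spans from TAIR10.1 as lengths, 22969 of 22974 nuclear genes above 0 (99.98%) gave whole reads in every library within 0.02 reads. Span-based TPM lowers genes with long introns, and 43 of the 45 SAUR genes have a single exon block. Depth limits low genes: the floors (3 reads) cover counting error only. Each ± is an SD between libraries or the SE of the limma fit.

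Here log2(TPM + 1) of the 19013 genes with a mean of at least 1 TPM was fitted with limma 3.58.1 (R 4.3.3), with a trend in the variance prior, two-sided and adjusted by Benjamini-Hochberg over all tested genes at 0.05. Log2 fold changes on this scale understate changes of low genes. The members and lists were chosen with earlier results of these data known. Values in each library are given for every SAUR gene past the threshold and, per array, for the gene highest in wild type and the one with the largest absolute fold change. Other SAUR genes are given by means, and of each pathway list up to 4 genes past the threshold. A few more, GLK1, AT5G02760, AHA1 and AHA2 among them, were named after their values were seen. The 17 alternatives changed the pseudocount, filter, scaling, variance prior, library weights, replicate block, unit, gene length or left out 1 library. Replicate libraries varied beyond counting noise, with a chi-square of 2.12 to 3.91 per degree of freedom. Wild type replicate 1 gave the highest values, 3.91 beside replicate 2 and 3.6 beside replicate 3. Wild type replicates 2 and 3 gave 2.12, and pairs of h3.3ko;HTR5 libraries 2.18 to 2.75. SAUR genes were found by annotated name or description. AT5G01830, annotated SAUR21 but described as an ARM repeat protein, was left out. Windows of 50 bases were searched for across the genome in both orientations.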

Additional observations from a re-analysis of the deposited data

How the results depend on the processing

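The 35 SAUR and pathway genes followed across 17 alternatives gave 587 values. Of these 507 kept their direction and their side of the threshold, 68 lost a call, 6 gained one and 6 changed sign. As 27 of the 35 had a call, most could lose one and few could gain one. SAUR genes outside the 35 also gained calls. SAUR21 did in 3 of 17 alternatives, SAUR61 in 2 and SAUR24 in 1, and SAUR9 in 3 of 16. The sign changes were all in genes with no call: AT2G21210 (-0.105 to 0.0125 with 1 library left out), AT1G75580 (-0.0099 with array weights, -0.1618 to 0.1473 with 1 library left out) and AT1G75590 (-0.0637 with array weights, -0.3421 to 0.3547 with 1 library left out). SAUR23, SAUR62, SAUR66, AT1G29510, SAUR14 and SAUR72 were called under all 17 and SAUR7 under all 16 that tested it. The SAUR genes higher numbered 7 to 13 and, with 1 library left out, 7 to 12. Those lower were 2 instead of 4 with no filter, quantile normalization, median-of-ratios scaling, no trend or voom, and 1 to 3 with 1 library left out. Beside 10 higher and 4 lower, quantile normalization and median-of-ratios scaling each gave 11 higher and 2 lower. Among all tested genes 30.8% of calls were higher, against 46.4%, 42.8% and 46.3% with quantile normalization, median-of-ratios scaling and voom, which moved the median of all genes from -0.03 to between 0.0021 and 0.014. The count of changed genes was 1443 with no trend and 1289 to 2084 with 1 library left out. Aux/IAA genes changed numbered 1 with no trend, 8 with voom and 2 to 5 with 1 library left out, upstream factors 1 with no trend and 0 to 2, PP2C-D genes 1 with voom and 0 to 1, AHA genes 1 with voom, leaf markers 2 with the robust option or voom, and other SAUR genes higher 0 to 1. Array sum ratios with 1 library left out ran from 1.305 to 1.64 (SAUR19-24), 1.409 to 1.593 (SAUR61-68) and 1.209 to 1.865 (SAUR26-29). The cause of these shifts was not tested. Same-numbered libraries did not deviate together (correlations of -0.0427, 0.0236 and -0.0122). The labels do not say whether same-numbered libraries were grown or harvested together, and correlations over all genes cannot settle it. With a replicate block 11 SAUR genes were higher and 4 lower, 13 of the 14 being called again, and 1851 genes changed in all. SAUR genes under a few TPM rest on few reads, 94 for SAUR7 in all libraries, so absence of a call there says little.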

Other observations

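Genes of other families lie inside the SAUR arrays and were measured with them. There were 10 such genes wholly inside an array, of which 5 were tested and 1 passed the threshold, beside 12.0% of all tested genes. AT1G29465, an uncharacterized gene inside the SAUR61-68 array (chromosome 1, 10308520 to 10309896, TAIR10.1), was at 13.25, 12.5 and 12.1 TPM in the wild type libraries against 24.7, 24.6 and 22.3 TPM. The groups were far apart (limma adjusted p = 1.61e-04, log2 fold change 0.87 ± 0.08), a larger change than that of any tested SAUR gene of the array. Its neighbour AT1G29470 (10310131 to 10314147), a methyltransferase superfamily gene, was lower in every h3.3ko;HTR5 library, at 105 ± 3.4 against 92.8 ± 4.84 TPM (SD, n = 3), and did not pass (limma adjusted p = 0.0549).

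AT2G21195, an uncharacterized gene beside the SAUR7 locus on chromosome 2 (9083144 to 9083909), is not counted among them. It lies outside the array, whose first base is 9083906, except for a few bases that overlap SAUR7 on the opposite strand. It was at 19.2, 20.3 and 16.9 TPM against 22.1, 24.1 and 25.7 TPM (limma adjusted p = 0.0323, log2 fold change 0.34 ± 0.09). In the SAUR19-24 array AT5G18040, AT5G18065 and AT5G18070 did not pass, at 10.2 ± 2.28 against 11.2 ± 0.39 TPM, 3.25 ± 0.35 against 2.57 ± 0.20 TPM and 8.92 ± 1.74 against 7.56 ± 1.01 TPM (SD, n = 3). Their log2 fold changes were 0.14, -0.25 and -0.20, while all 6 SAUR genes around them were positive.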
